A study of Mus musculus with 8 samples.

Results

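The interferon genes examined here were 32 listed mouse genes that are induced by interferons, together with their transcriptional regulators and the type I interferon receptor, read in the hypothalamus of pups treated with PLX3397 or vehicle. They were taken by gene symbol from a table of 55401 genes. All 32 were found, and all 32 had a mean of at least 0.1 FPKM (fragments per kilobase, scaled to library size) over the 8 libraries, so each was among the 22423 genes tested. The label under which they were listed, interferon-stimulated genes without microglia, refers to the PLX3397 treatment, after which microglial transcripts were lower but still present.

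RNA sequencing was done on ribosomal-RNA-depleted total RNA of 8 hypothalami. The PLX3397 group was 4 pups gavaged with PLX3397, an inhibitor of the kinase receptor CSF1R on which microglia depend, from postnatal day 9 to postnatal day 15, and the vehicle group was 4 pups gavaged with vehicle over the same days. Both groups were sampled on postnatal day 19, so 4 days passed without gavage, and each group held 2 females (F1, F2) and 2 males (M1, M2). The 4 values of a group stand in the order F1, F2, M1, M2 throughout. No strain is named in the labels, which give the tissue as brain while the design text gives hypothalamus, and PLX3397 also acts on other kinases than CSF1R. Pmch, a neuropeptide gene of the lateral hypothalamus chosen here for this check, averaged 281 ± 31.2 CPM (counts per 1000000) in PLX3397 libraries and 235 ± 9.39 CPM in vehicle libraries (SD, n = 4 each).

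Interferons are cytokines made when cells sense foreign or misplaced nucleic acid. Type I interferons bind a receptor made of IFNAR1 and IFNAR2, whose kinases activate STAT2 and other factors, and STAT2 with IRF9 is part of a complex that binds a DNA element, the ISRE, in front of a large set of genes whose products restrict viruses. In the uninfected brain a low tonic level of this programme is found in many cell types, and a subset of microglia is known for a strong interferon signature.

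Library totals were 55900335 to 67487391 counts in the PLX3397 group and 54115300 to 60001808 counts in the vehicle group. A count of 0 allows up to 3 counts, which is 0.0450 to 0.0553 CPM depending on the library and covers counting error only. Csf1r was at 6.41, 6.04, 5.03 and 1.23 CPM in the PLX3397 libraries, against 76.0, 81.2, 79.9 and 85.1 CPM in the vehicle libraries, a log2 fold change of −4.17 ± 0.43 with an edgeR adjusted p of 0.00660. All 19 tested microglial markers had negative log2 fold changes, and 12 were called lower at an edgeR adjusted p under 0.05. Of all tested genes 1.27% were called lower. The 20 microglial markers summed to 29.3 to 64.2 CPM in PLX3397 libraries and 393 to 415 CPM in vehicle libraries. All 7 tested border macrophage markers were negative, and 3 were called lower. In bulk tissue, fewer cells of a type and less RNA per cell cannot be told apart. Vehicle F1 stood apart in holding 4066 CPM over 9 pituitary markers, against 29.3 to 40.2 CPM in PLX3397 libraries and 27.4 to 39.9 CPM in the other vehicle libraries, and PLX3397 M2 held the fewest microglial transcripts.

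None of the 32 interferon genes passed the test between PLX3397 and vehicle. With edgeR's quasi-likelihood test, sex as a covariate and Benjamini-Hochberg adjustment over all tested genes, 0 members were higher and 0 were lower at an adjusted p under 0.05. Over all tested genes 1.27% were called lower and 0.205% higher, so fewer than 1 call in either direction would be met in 32 genes at that rate. At an unadjusted p under 0.05 there were 2 members, Irf1 and Ifit2, or 6.25% of the 32, where all genes gave 14.4%. The median log2 fold change (PLX3397 over vehicle) was 0.06 over the members and −0.00 over all tested genes, with 19 members positive and 13 negative. That median moved with single libraries and was −0.06 without PLX3397 M2, −0.05 without vehicle M1, −0.00 without vehicle F2, 0.02 without PLX3397 F1, 0.13 without PLX3397 F2 and 0.18 without vehicle F1. No member had PLX3397 and vehicle values that were fully apart, while 5.74% of all genes were apart and lower and 4.51% apart and higher.

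**Figure D1:**
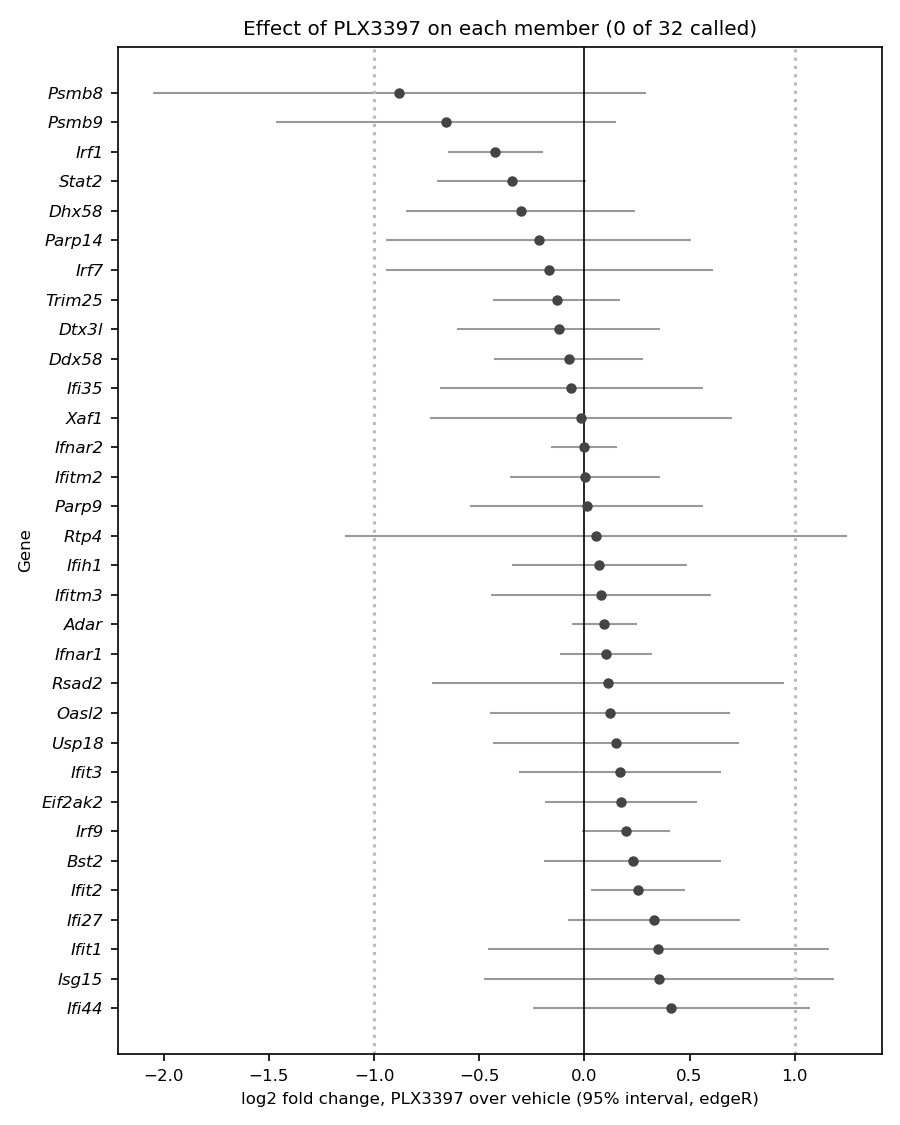
Log2 fold change of each of the 32 members, PLX3397 over vehicle, on the horizontal axis, with its 95% interval from edgeR (n = 4 libraries each) and the members ordered from the lowest to the highest. Dotted lines mark a 2-fold fall and a 2-fold rise, and 30 of the 32 intervals hold 0.

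How large a change these data leave room for differed by gene. The 95% interval of 30 members held 0, that of Irf1 lay below 0 and that of Ifit2 above 0. A 2-fold fall was inside the interval of 3 members (Psmb8, Psmb9 and Rtp4) and a 2-fold rise inside that of 4 (Rtp4, Isg15, Ifit1 and Ifi44). For the others a 2-fold change in either direction was outside the interval. The median interval reached 0.50 to either side of the estimate on the log2 scale, and 30 of the 32 estimates were within 0.5 of 0. The microglial markers, read in the same libraries, had a median log2 fold change of −3.95.

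The type I receptor comes first in the pathway. Ifnar1, the subunit with the docking site for the kinase TYK2, was at 59.2, 48.6, 62.8 and 65.9 CPM in the PLX3397 libraries, against 53.0, 57.9, 50.9 and 57.7 CPM in the vehicle libraries. Ifnar2, the subunit that carries JAK1, was at 15.7, 14.97, 14.5 and 16.5 CPM in PLX3397 libraries, against 14.6, 14.97, 16.1 and 16.2 CPM in vehicle libraries. For both genes the vehicle range lay inside the PLX3397 range. The log2 fold changes were 0.10 ± 0.09 for Ifnar1 (95% interval −0.11 to 0.32) and −0.00 ± 0.07 for Ifnar2 (−0.16 to 0.16). These were among the tightest intervals of the 32.

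Of the 4 transcription factors, Irf1 had the smallest p. IRF1 is a regulator induced mainly by interferon-gamma that also holds up basal expression of antiviral genes. Irf1 (mm10, chromosome 11, 53770014 to 53777323) was at 7.43, 8.55, 7.42 and 6.86 CPM in the PLX3397 libraries, against 11.2, 10.7, 10.2 and 8.51 CPM in the vehicle libraries. All 4 PLX3397 libraries lay below 3 of the 4 vehicle libraries, and PLX3397 F2 and vehicle M2 touched. Its log2 fold change was −0.42 ± 0.10 (95% interval −0.65 to −0.20), and the adjusted p was 0.0981 with edgeR. With DESeq2 it was the 1 member called, with an adjusted p of 0.00739, in a fit that called 1191 genes where edgeR called 331. Irf1 shares 3145 bases with Gm17334 on the opposite strand, which averaged 0.754 CPM, and the labels do not say whether reads were counted by strand.

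The other factors of the chain went separate ways by sign and none was called. Stat2, a signal transducer that works with IRF9, was at 21.4, 17.6, 17.7 and 18.8 CPM in the PLX3397 libraries, against 24.3, 32.1, 17.0 and 23.8 CPM in the vehicle libraries (log2 fold change −0.35 ± 0.15, adjusted p = 0.360). Irf9, the DNA-binding part of the complex, was at 29.9, 27.1, 24.4 and 22.97 CPM in PLX3397 libraries, against 29.8, 24.6, 18.2 and 19.5 CPM in vehicle libraries (0.20 ± 0.09, adjusted p = 0.378). In both groups the females held more Irf9 than the males. Irf7, the factor that amplifies type I interferon production, was at 4.42, 3.62, 2.85 and 5.67 CPM in PLX3397 libraries, against 8.16, 4.56, 2.84 and 3.90 CPM in vehicle libraries (−0.17 ± 0.33). Its highest value was in vehicle F1 and its lowest in vehicle M1, so that the vehicle group alone spanned the whole range.

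**Figure D2:**
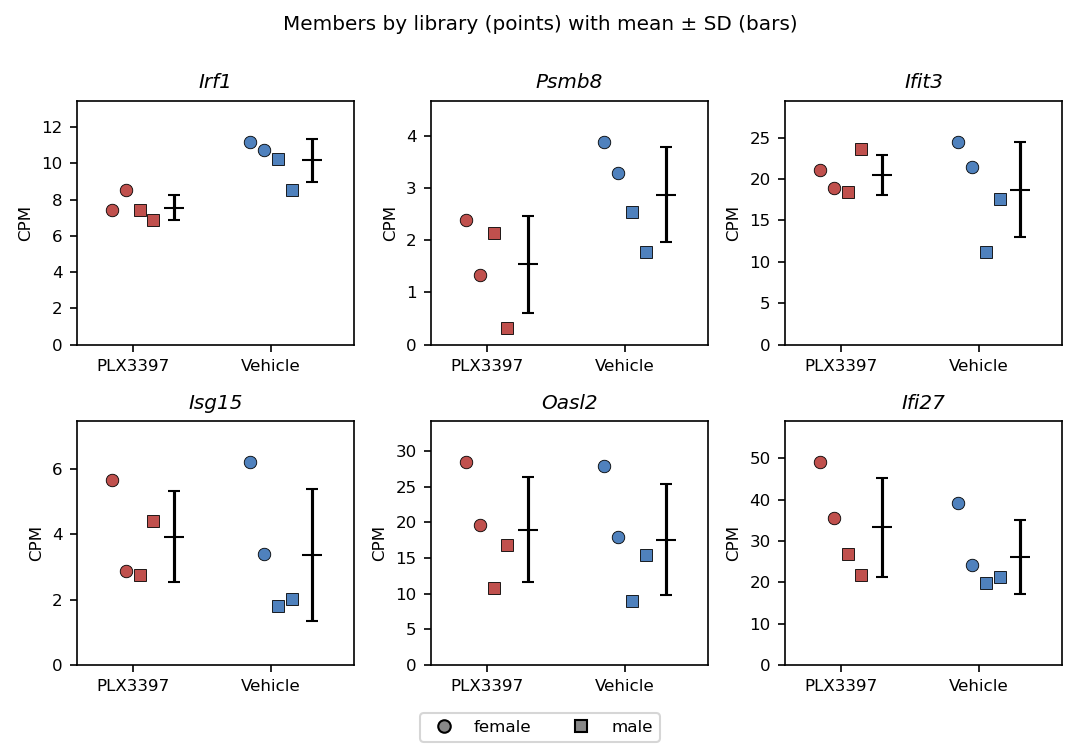
CPM of 6 members in each library, PLX3397 at the left and vehicle at the right of each panel, females as circles and males as squares, with mean ± SD (n = 4) beside the points. The 2 groups overlap in every panel, and vehicle values of Isg15 run from 1.81 to 6.21 CPM.

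The sensors and editors of RNA make up the next 6 members. Ifih1 and Ddx58 encode the cytosolic RNA sensors MDA5 and RIG-I, and Dhx58 encodes LGP2, which modulates them. Ifih1 ran from 4.29 to 6.68 CPM in PLX3397 and from 4.76 to 6.77 CPM in vehicle libraries, Ddx58 from 9.58 to 12.7 CPM in PLX3397 and from 9.65 to 14.5 CPM in vehicle libraries, and Dhx58 from 1.48 to 2.78 CPM in PLX3397 and from 2.31 to 2.94 CPM in vehicle libraries. Their log2 fold changes were 0.07 ± 0.18, −0.07 ± 0.15 and −0.30 ± 0.23. Eif2ak2, the RNA-activated kinase PKR, and Adar, the RNA-editing enzyme that keeps self RNA from being sensed, had log2 fold changes of 0.17 ± 0.15 and 0.09 ± 0.07. Eif2ak2 ran from 9.61 to 14.03 CPM in PLX3397 and from 9.44 to 12.5 CPM in vehicle libraries, and Adar from 285 to 348 CPM in PLX3397 and from 279 to 295 CPM in vehicle libraries. Oasl2, an oligoadenylate synthetase-like gene, was at 28.5, 19.6, 10.8 and 16.9 CPM in the PLX3397 libraries, against 27.8, 18.0, 9.02 and 15.4 CPM in the vehicle libraries. F1 was the highest and M1 the lowest library in both groups, and the log2 fold change was 0.12 ± 0.24. Adar shares 7252 bases with Chrnb2 on the opposite strand, a gene of 163 CPM, so its counts may hold reads of that gene.

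The IFIT genes, whose proteins bind foreign RNA or block its translation, lie side by side on chromosome 19. All 3 had positive log2 fold changes, and none was called. Ifit2 was at 20.1, 23.3, 23.5 and 22.8 CPM in the PLX3397 libraries, against 20.9, 20.2, 16.2 and 18.1 CPM in the vehicle libraries. Of the PLX3397 libraries, F1 alone lay within the vehicle range (0.25 ± 0.10, 95% interval 0.03 to 0.48, adjusted p = 0.285). Ifit3 was at 21.1, 18.9, 18.4 and 23.6 CPM in PLX3397 libraries, against 24.5, 21.4, 11.2 and 17.6 CPM in vehicle libraries (0.17 ± 0.20). Ifit1 was at 8.66, 6.85, 5.52 and 10.5 CPM in PLX3397 libraries, against 9.32, 8.97, 2.77 and 5.48 CPM in vehicle libraries (0.35 ± 0.35). The estimate for Ifit1 was 0.03 without PLX3397 M2 and 0.06 without vehicle M1. Vehicle M1 was the lowest of the 8 libraries for all 3 genes.

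Isg15 encodes a ubiquitin-like protein that is attached to other proteins, Usp18 the protease that removes it and also restrains the receptor, and Trim25 an E3 ligase that acts on RIG-I. Isg15 was at 5.66, 2.87, 2.76 and 4.41 CPM in the PLX3397 libraries, against 6.21, 3.38, 1.81 and 2.03 CPM in the vehicle libraries (0.35 ± 0.36, adjusted p = 0.727). The F1 library was the highest in each group, and the estimate ran from 0.11 without PLX3397 M2 to 0.67 without vehicle F1. Usp18 ran from 3.47 to 5.77 CPM in PLX3397 and from 2.21 to 5.21 CPM in vehicle libraries (0.15 ± 0.25), and Trim25 from 17.2 to 20.7 CPM in PLX3397 and from 18.0 to 25.9 CPM in vehicle libraries (−0.13 ± 0.13). Parp9 and Dtx3l, which form a complex of a poly-ADP-ribose polymerase family member and a ubiquitin ligase, and Parp14, another family member, had log2 fold changes of 0.01 ± 0.24, −0.12 ± 0.21 and −0.22 ± 0.31. Parp9 ran from 4.98 to 7.03 CPM in PLX3397 and from 3.84 to 8.89 CPM in vehicle libraries, Dtx3l from 4.42 to 5.82 CPM in PLX3397 and from 4.15 to 8.93 CPM in vehicle libraries, and Parp14 from 3.98 to 7.66 CPM in PLX3397 and from 4.70 to 11.1 CPM in vehicle libraries. All 3 were highest in vehicle F1, and Parp9 and Dtx3l share 682 bases on opposite strands.

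Bst2, Ifitm2 and Ifitm3 encode membrane proteins that hold back budding or entering viruses. Ifitm3 was at 21.5, 18.0, 13.7 and 20.2 CPM in the PLX3397 libraries, against 28.5, 17.0, 11.4 and 14.9 CPM in the vehicle libraries (0.08 ± 0.22). The extremes of all 8 libraries were again vehicle F1 and vehicle M1. Bst2 ran from 3.88 to 7.60 CPM in PLX3397 and from 3.56 to 7.57 CPM in vehicle libraries (0.23 ± 0.18), and Ifitm2 from 9.15 to 10.1 CPM in PLX3397 and from 7.45 to 12.4 CPM in vehicle libraries (0.00 ± 0.15). Reads of Ifitm2 and Ifitm3, which are close paralogs, may have been split uncertainly between them.

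Among 6 further induced genes Rsad2 encodes viperin, an antiviral enzyme, Xaf1 a factor that promotes cell death, Rtp4 a receptor transporter, and Ifi27, Ifi35 and Ifi44 interferon-induced proteins. Ifi27 was at 49.2, 35.6, 27.0 and 21.7 CPM in the PLX3397 libraries, against 39.3, 24.1, 19.9 and 21.3 CPM in the vehicle libraries (0.33 ± 0.18, 95% interval −0.08 to 0.74, adjusted p = 0.451). F1 held the most in each group, and the ranges overlapped. Ifi44 had the highest estimate of the 32, 0.41 ± 0.28 (adjusted p = 0.577), with 4.29, 2.81, 1.14 and 2.47 CPM in PLX3397 libraries and 3.36, 2.63, 1.27 and 1.12 CPM in vehicle libraries. It was 0.13 without PLX3397 M2. Rtp4 had the widest interval of these 6, with 2.38, 6.17, 2.34 and 7.55 CPM in PLX3397 libraries and 3.92, 7.02, 2.10 and 4.995 CPM in vehicle libraries. Low and high values of Rtp4 stood in both groups, and its interval (−1.14 to 1.25) was open to a 2-fold change either way. Rsad2 ran from 1.94 to 2.98 CPM in PLX3397 and from 1.31 to 4.44 CPM in vehicle libraries (0.11 ± 0.36), Xaf1 from 3.17 to 6.26 CPM in PLX3397 and from 2.64 to 8.86 CPM in vehicle libraries (−0.02 ± 0.31), and Ifi35 from 3.37 to 4.79 CPM in PLX3397 and from 2.84 to 7.45 CPM in vehicle libraries (−0.06 ± 0.27). For all 3 the vehicle range held the whole PLX3397 range.

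Psmb8 and Psmb9 encode catalytic subunits of the immunoproteasome, which cuts peptides for antigen presentation, and had the 2 lowest estimates of the list. Psmb8 (mm10, chromosome 17, 34197721 to 34201454) had raw counts of 159, 85, 126 and 18 in the PLX3397 libraries, against 229, 192, 138 and 107 in the vehicle libraries. The count of 18 in PLX3397 M2 has an exact Poisson interval of 10.7 to 28.4, and that library also held the fewest microglial transcripts. The highest library was 11.96-fold above the lowest, the widest range of any member. Psmb8 averaged 1.54 ± 0.928 CPM in PLX3397 libraries and 2.87 ± 0.912 CPM in vehicle libraries (SD, n = 4 each), a log2 fold change of −0.88 ± 0.50 with an adjusted p of 0.492. Leaving out PLX3397 M2 gave −0.57 and leaving out PLX3397 M1 gave −1.53. Psmb9 was at 1.004, 0.718, 0.813 and 0.903 CPM in PLX3397 libraries, against 1.73, 0.650, 1.25 and 1.85 CPM in vehicle libraries (−0.66 ± 0.35, adjusted p = 0.449). Vehicle F2 held the least Psmb9 of all 8 libraries, which set the overlap of the groups.

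Per length, the members spanned a wide range of expression levels. The highest mean levels over the 8 libraries were 31.7 FPKM for Adar, 23.5 FPKM for Ifitm3, 17.7 FPKM for Ifi27, 12.9 FPKM for Ifitm2 and 9.84 FPKM for Ifit3. The lowest were 0.262 FPKM for Psmb9, 0.339 FPKM for Ifi44 and 0.508 FPKM for Rsad2. The median member was at 2.07 FPKM, and 23 members reached 1 FPKM.

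In front of some of these genes the DNA matches the core of the element that the complex of STAT2 and IRF9 recognises. Members were chosen by function without reading that DNA, but genes induced by interferon are known to carry such elements. The shares below are therefore not independent of the choice. In RefSeq promoter windows (GRCm38.p6, 250 bases before to 50 bases after each start), 26 of the 32 members were matched by symbol, all but Parp9, Rtp4, Ifi27, Parp14, Dhx58 and Usp18. The ISRE core GAAANNGAAA, searched on both strands, was in 11 of the 26 (42.3%), while 3.99% of all 27025 genes in the table had it. The GAS core TTCNNNGAA, known from genes that respond to interferon-gamma and its own reverse complement, was in 10 of the 26 (38.5%), against 9.55% of all genes. Of the 17 ISRE cores in member windows 5 overlapped another ISRE core, in Isg15 and Bst2, and 2 overlapped a GAS core, in Bst2 and Ifitm3. Among the members with a core 7 are shown, chosen with their values known, with the core nearest the start in capitals in 30 bases of the strand that reads GAAA.
Isg15 (chr4:156200865-156200894, minus strand): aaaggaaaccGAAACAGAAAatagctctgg
Ifit1 (chr19:34640794-34640823, minus strand): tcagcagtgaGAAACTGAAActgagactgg
Ifit3 (chr19:34583397-34583426, minus strand): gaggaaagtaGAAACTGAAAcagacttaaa
Bst2 (chr8:71537577-71537606, minus strand): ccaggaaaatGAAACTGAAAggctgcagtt
Ifitm3 (chr7:141010723-141010752, minus strand): caaaattcagGAAAAGGAAActtctgagaa
Rsad2 (chr12:26456553-26456582, plus strand): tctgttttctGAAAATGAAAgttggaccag
Stat2 (chr10:128270266-128270295, minus strand): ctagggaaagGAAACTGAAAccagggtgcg

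The cores of Isg15, Ifit1, Ifit3, Bst2, Rsad2 and Stat2 began 66, 85, 122, 124, 120 and 222 bases before the start, and that of Ifitm3 just after it. A match of letters is a description, not a bound site. The 11 members with an ISRE core had a median log2 fold change of 0.11 (range −0.35 to 0.35), and the 15 matched members without one had a median of −0.02 (range −0.88 to 0.41). No member of either set was called. Of the 11 with a core 7 were lowest in vehicle M1, and of the 15 without one also 7.

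The interferon genes varied between libraries of the same group, and many did so together. The ratio of the highest to the lowest of the 8 libraries, taken across both groups and sexes, had a median of 2.25 over the members. It was above 2 for 19 of them and was not computed for all tested genes. Vehicle F1 was the highest library for 16 of the 32 members (50%), where 12.7% of all tested genes were highest in it. Vehicle M1 was the lowest for 18 members (56.2%), where 11.7% of all tested genes were lowest in it. As the median over members of log2 CPM minus each gene's own 8-library mean, the PLX3397 libraries stood at 0.17, −0.05, −0.23 and 0.15, and the vehicle libraries at 0.38, 0.02, −0.38 and −0.11. Both extremes were thus vehicle libraries, and the 4 PLX3397 libraries lay between them. Over all tested genes the same median stayed between −0.00 and 0.00 in every library. Because many members move together, their signs in any comparison are not independent of each other.

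**Figure D3:**
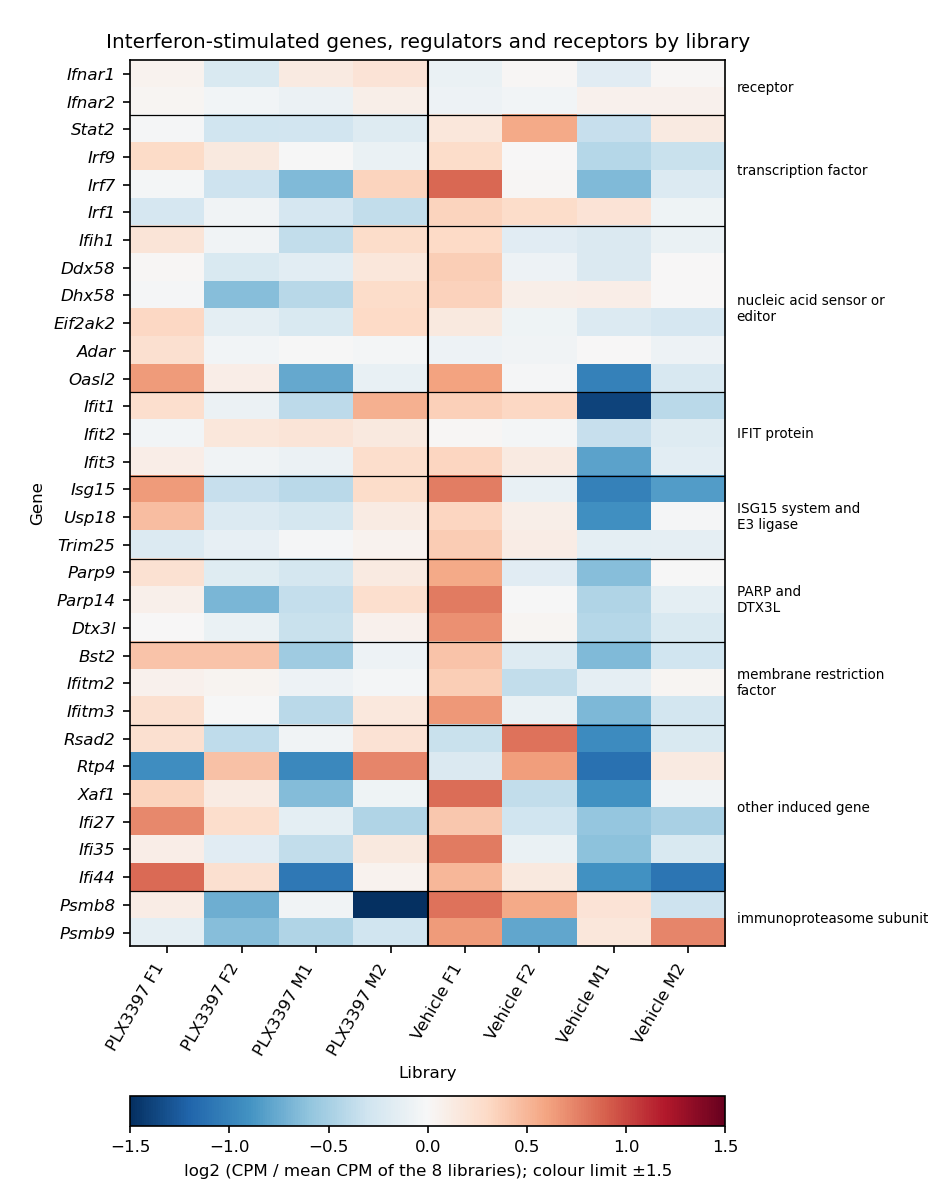
Log2 of each member's CPM over its mean in the 8 libraries (colour), with the PLX3397 libraries left of the line and the vehicle libraries right of it, and members grouped by role down the page. Vehicle F1 is the highest library for 16 members and vehicle M1 the lowest for 18.

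**Figure D4:**
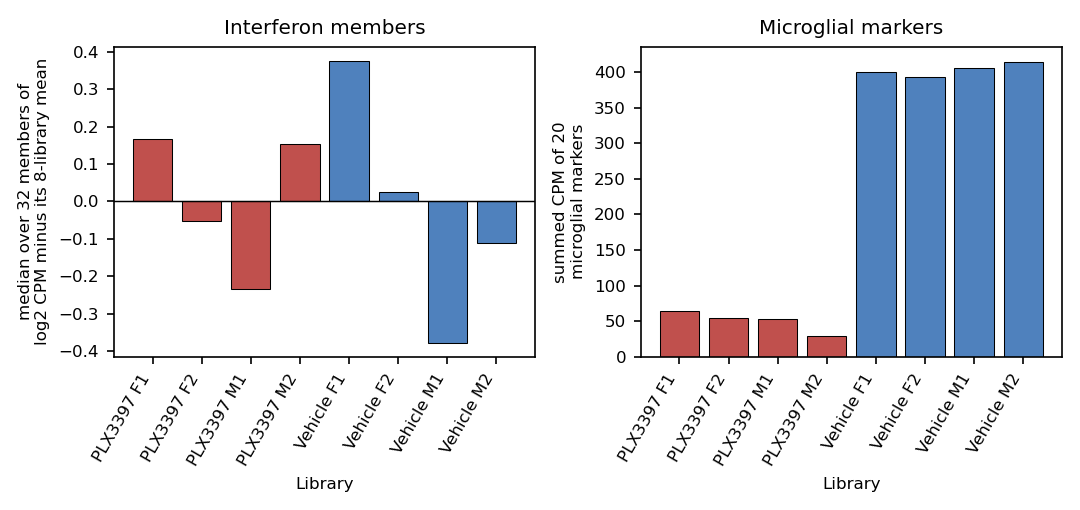
Left, the median over the 32 members of log2 CPM minus the gene's 8-library mean, and right, the summed CPM of 20 microglial markers, for each library, with PLX3397 in red and vehicle in blue. The microglial sum is 29.3 to 64.2 in PLX3397 and 393 to 415 in vehicle libraries, and the member median is highest in vehicle F1 and lowest in vehicle M1.

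Other measured features moved with these libraries in part. The pituitary markers summed to 4066 CPM in vehicle F1 and 27.4 CPM in vehicle M1. The microglial sum was 401 CPM in vehicle F1 and 406 CPM in vehicle M1, the opposite ends of the interferon order. The 12 endothelial markers, for cells known to respond to interferon, summed to 310 to 354 CPM in PLX3397 and 295 to 372 CPM in vehicle libraries, with vehicle F1 the lowest of the 8. The 14 lymphocyte and granulocyte markers summed to 5.31 to 22.4 CPM in PLX3397 and 8.77 to 13.6 CPM in vehicle libraries, and Cd3g and Cd8a were at a count of 0 in all 8. Oligodendrocyte markers summed to 2141 to 4864 CPM in PLX3397 libraries and 6301 to 9551 CPM in vehicle libraries, and those of their precursors to 319 to 424 CPM in PLX3397 and 897 to 1266 CPM in vehicle libraries. Astrocyte markers, of another cell type known to respond to interferon, summed to 3459 to 3711 CPM in PLX3397 and 3216 to 3847 CPM in vehicle libraries, with vehicle F1 the lowest. Blood markers summed to 17.2 to 39.3 CPM in PLX3397 and 19.8 to 125 CPM in vehicle libraries, with 19.8 CPM in vehicle F1 and 121 CPM in vehicle M1. Pericyte and smooth muscle markers were at 192 CPM in vehicle F1 and 253 CPM in vehicle M1 (201 to 235 CPM in PLX3397 libraries), and meningeal fibroblast markers at 263 CPM in vehicle F1 and 351 CPM in vehicle M1 (364 to 515 CPM in PLX3397 libraries). Neuronal markers summed to 4008 to 4168 CPM in PLX3397 and 3762 to 4016 CPM in vehicle libraries, border macrophage markers to 6.72 to 10.5 CPM in PLX3397 and 31.0 to 42.5 CPM in vehicle libraries, and dendritic cell markers to 68.02 to 101 CPM in PLX3397 and 84.5 to 109.5 CPM in vehicle libraries. The dendritic cell list shares Bst2 with the members and Siglech with the microglial list, and 4 of its 8 genes were tested. The part of these cell types in the members' values was not tested.

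Females and males were compared with treatment as a covariate. Of the 32 members 28 were higher in females (87.5%), where 49.3% of all tested genes were. The median log2 difference (females over males) was 0.31 over the members and −0.00 over all genes. None was called at an adjusted p under 0.05, and over all genes 0.0446% were. At an unadjusted p under 0.05 there were 5 members (15.6%), against 4.76% of all genes: Irf9 (0.39 ± 0.09), Bst2 (0.67 ± 0.18), Ifi27 (0.71 ± 0.18), Ifi44 (1.15 ± 0.28) and Oasl2 (0.85 ± 0.25), each with an adjusted p of 0.967. The median was 0.18 without vehicle F1, with 24 members higher in females, and 0.16 without vehicle M1, with 26. Of the markers, all 9 pituitary genes and all 5 tested lymphocyte and granulocyte genes were also higher in females. The pituitary sum was 4066 CPM in vehicle F1 alone. It was 30.8 to 40.2 CPM in the other females and 27.4 to 39.9 CPM in males. The lymphocyte and granulocyte sum was 17.6 and 22.4 CPM in PLX3397 females, against 6.05 and 5.31 CPM in PLX3397 males. In vehicle libraries both female sums lay between those of M1 (13.6 CPM) and M2 (8.77 CPM). Of the endothelial genes 11 of 12, and of the meningeal fibroblast genes 8 of 8, were lower in females. The part of these markers in the sex difference of the members was not tested.

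The effect of PLX3397 within each sex came from a model with 4 groups of 2 libraries. Within females 22 of the 32 members were negative, with a median log2 fold change of −0.20, and within males 25 were positive, with a median of 0.24. No member was called within either sex, where 45 of all 22423 tested genes were called within females and 229 within males. The difference itself, the effect in females minus that in males, was negative for 26 members (81.2%, all genes 49.5%) with a median of −0.36. None of the members passed the test of that difference, and 0.00446% of all genes did. At an unadjusted p under 0.05 there were 2 members, Trim25 and Ifit2 (6.25%, all genes 5.68%). A high vehicle F1 and a low vehicle M1 both make this difference more negative by its construction. The median was −0.15 without vehicle F1, −0.27 without vehicle M1, −0.18 without PLX3397 F2 and −0.22 without PLX3397 M2. In those 4 fits 20 to 24 members were negative, and in the fits without PLX3397 F1, PLX3397 M1, vehicle F2 and vehicle M2 the medians were −0.52, −0.52, −0.39 and −0.53.

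The rest of the pathway was read from lists drawn up by function, with earlier results of these data known. Of 14 interferon genes themselves 0 reached the expression filter, and 8 had a count of 0 in every library. The 14 genes summed to 49 counts in the 4 PLX3397 libraries and 44 counts in the 4 vehicle libraries, of which Ifng, the type II interferon, held 37 and 22. No library held more than 17 counts of any of them, so a difference between the groups was not detectable at this depth.

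Of 17 tested genes for nucleic acid sensing and its signalling 3 were called lower and 0 higher, and the median log2 fold change was −0.11. Over all tested genes 1.27% were called lower and 0.205% higher. At an unadjusted p under 0.05 there were 5 of the 17 (29.4%), against 14.4% of all genes. Unc93b1, which carries the endosomal Toll-like receptors to their compartment, was at 5.28, 4.496, 4.91 and 4.08 CPM in the PLX3397 libraries, against 13.9, 13.2, 15.5 and 17.7 CPM in the vehicle libraries (−1.67 ± 0.13, adjusted p = 0.00384). Tlr7, the endosomal receptor for single-stranded RNA, averaged 0.265 ± 0.107 CPM in PLX3397 libraries and 2.48 ± 0.166 CPM in vehicle libraries (−3.26 ± 0.31, adjusted p = 0.00584). Irf5, a factor downstream of these receptors, averaged 0.728 ± 0.157 CPM in PLX3397 libraries and 2.51 ± 0.325 CPM in vehicle libraries (−1.79 ± 0.22, adjusted p = 0.0130). The PLX3397 and vehicle libraries did not overlap for these 3 genes. Irf5 missed the threshold without vehicle F2 (adjusted p = 0.0528) and without vehicle M2 (0.0551). With vehicle F1 and PLX3397 M2 both left out, Tlr7 (adjusted p = 0.0641) and Irf5 (0.0822) missed it and Unc93b1 (0.0355) passed.

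Of 16 tested genes of the receptor and JAK-STAT chain 6 (37.5%) had an unadjusted p under 0.05, against 14.4% of all genes, and the median was −0.01. The shares called over all tested genes were 1.27% lower and 0.205% higher. At an adjusted p under 0.05, 1 of the 16 was called lower and 0 higher. It was Irf8, a factor that myeloid cells need to develop, at 1.44, 0.874, 1.08 and 0.470 CPM in the PLX3397 libraries, against 4.33, 4.36, 4.45 and 5.28 CPM in the vehicle libraries (−2.27 ± 0.32, adjusted p = 0.0201). Irf8 kept its direction in every fit that left out 1 library, but passed in 3 of the 8 and missed without PLX3397 F2 (adjusted p = 0.0812), PLX3397 M1 (0.0659), vehicle F2 (0.0637), vehicle M1 (0.0720) and vehicle M2 (0.0724). Among 26 tested paralogs of the members, Irf5 and Irf8 were the 2 called lower, 0 were called higher, and the median was −0.02.

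**Figure D5:**
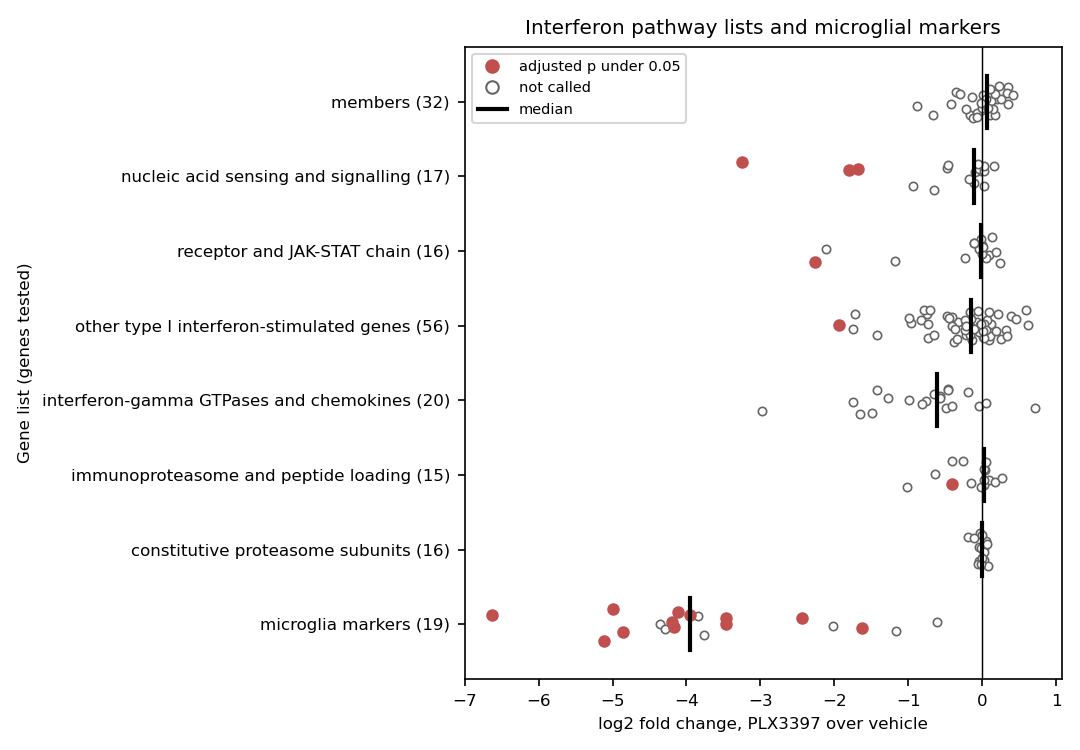
Log2 fold change (PLX3397 over vehicle, horizontal axis) of each tested gene in the members, 6 pathway lists and the microglial markers, filled red where the edgeR adjusted p was under 0.05, with the median of each list as a black bar. No member is filled, and the filled pathway genes are all below 0.

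Other induced genes were wider in their spread than the members. Of 56 tested further type I interferon-stimulated genes, out of 62 listed, 1 (Slfn8) was called lower and 0 higher, with a median of −0.15. Over all tested genes 1.27% were called lower and 0.205% higher. An unadjusted p under 0.05 was found for 15 of the 56 (26.8%), against 14.4% of all genes. The 36 negative were 64.3% of this list, against 51% of all genes. Slfn8, a schlafen family gene, averaged 0.368 ± 0.0816 CPM in PLX3397 libraries and 1.41 ± 0.236 CPM in vehicle libraries (−1.93 ± 0.27, adjusted p = 0.0188). Slfn8 missed the threshold without PLX3397 F2 (adjusted p = 0.0535), PLX3397 M1 (0.0723), vehicle F1 (0.0542), vehicle F2 (0.0664) and vehicle M2 (0.0793). A further list held 20 tested genes that respond mainly to interferon-gamma, among them guanylate-binding, immunity-related GTPase and chemokine genes and Nlrc5. Of these 20 genes 0 were called, 18 were negative and the median was −0.61. Their 2 smallest p-values belonged to Nlrc5, the transactivator of MHC class I genes, at 1.70 ± 0.592 CPM in PLX3397 libraries and 3.34 ± 1.41 CPM in vehicle libraries (−0.99 ± 0.24, adjusted p = 0.120), and to Gbp4 (−1.43 ± 0.39, adjusted p = 0.151). At an unadjusted p under 0.05 there were 7 of these 20 (35%), against 14.4% of all genes, and the 18 negative were 90% of the list, against 51% of all genes. Their median was −0.95 within females and −0.18 within males. All 24 genes listed summed to 135 and 106 CPM in vehicle F1 and F2, and to 61.8 and 87.1 CPM in vehicle M1 and M2. In PLX3397 libraries that sum was 58.0 to 76.4 CPM.

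The proteasome and antigen presentation lists set the values of Psmb8 and Psmb9 in context. Of 15 tested genes of the immunoproteasome and of peptide loading 4 (26.7%) had an unadjusted p under 0.05, against 14.4% of all genes. The shares called over all tested genes were 1.27% lower and 0.205% higher. In this list, with a median of 0.03, 1 gene was called lower and 0 higher. It was B2m, the light chain of MHC class I, at 66.2, 59.7, 55.0 and 50.9 CPM in the PLX3397 libraries, against 94.5, 79.4, 65.2 and 68.8 CPM in the vehicle libraries (−0.40 ± 0.07, adjusted p = 0.0474). The groups touched at PLX3397 F1 and vehicle M1, and B2m passed in 0 of the 8 fits that left out 1 library, with adjusted p-values from 0.0684 without vehicle F1 to 0.150 without vehicle M2. It also missed the threshold with upper-quartile scaling (0.0558), no expression filter (0.0548) and no sex covariate (0.181). Of 16 constitutive proteasome subunits 0 were called, with a median of −0.01, and the 2 smallest p-values were those of Psma7 (−0.11 ± 0.04, adjusted p = 0.243) and Psmb1 (−0.18 ± 0.08, adjusted p = 0.354).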

How the data were processed

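Per the file headers, the deposited table gives each gene a count and an FPKM value per library, both computed by the authors. Per the submitters' processing notes, bcl2fastq 2.0, HISAT2, StringTie, DESeq2 and limma were used with build mm10; how reads were counted, by strand or not, and on which annotation is not stated there. FPKM served only for the filter (mean of at least 0.1 over 8 libraries) and for levels per length.

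Counts were tested with edgeR 4.0.16 (R 4.3.3; TMM scaling, installed default dispersion step, two-sided quasi-likelihood F-test, Benjamini-Hochberg over 22423 genes, threshold 0.05). CPM are TMM-scaled, values are mean ± SD, and the error of a log2 fold change is its size divided by the square root of F. Samples were grouped by title and treated as separate animals, since the design text speaks of 8 hypothalami. No pair within a group agreed within sampling noise (chi-square per degree of freedom 31.0 to 50.9 over 12 pairs).

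The members and lists were chosen with earlier results of these data known. All members are named; of each pathway list, every called gene (at most 6), otherwise the 2 with the smallest p; of each marker list, counts and summed CPM. Of 19 sensing symbols 17 matched the table, and of 29 paralogs 28. The promoter windows shown fall outside the rule, which named called members only. A planned comparison of member proteins was not run. The test was checked on simulated counts. Alternatives were other scalings and filters, DESeq2 1.42.0, limma 3.58.1 on log2(CPM + 0.5), log2(FPKM + 0.5) and log2(FPKM + 0.1), no sex covariate, a replicate block, each library left out, and, chosen after seeing the data, edgeR's newer dispersion form. Of the members 10 overlap another tested gene, and their reads cannot be assigned with certainty.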

Additional observations from a re-analysis of the deposited data

Results flagged for a closer look

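Of 64 sets of 4 libraries (each member in each treatment group) 1 had a library far from the other 3, where chance alone gives about 1 in 20. Adar was at 348 CPM in PLX3397 F1, while PLX3397 F2, M1 and M2 held 285 to 294 CPM, and that gap was 0.858 of the group's whole range. The vehicle libraries held 279 to 295 CPM.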

How the results depend on the processing

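The count of called members stayed at 0 higher and 0 lower in every alternative except DESeq2, which called 1 lower (Irf1); the smallest adjusted p of any member lay between 0.0761 and 0.331 in the others. The number of genes called over the whole table was 331 (13.9% of them higher), against 1191 with DESeq2 (30.3% higher), 28 with the replicate block, 73 without vehicle F1 and PLX3397 M2, and 114 to 333 when each library was left out in turn. The labels F1 to M2 were not taken to pair the samples. Over all genes, same-label libraries correlated at 0.020 to 0.065 in their deviations from the treatment mean. PLX3397 F1, F2 and M2 correlated best with the vehicle library of the same label, and PLX3397 M1 with vehicle M2. Once sex was fitted too, same-label libraries correlated at −0.244 to −0.123, and no best partner had the same label. Over the 32 members the same-label correlations were 0.11 to 0.62, and 0.045 to 0.43 once sex was fitted too. The replicate block put Csf1r (adjusted p = 0.0544), Tlr7 (0.0544), Irf5 (0.0852), Irf8 (0.0907), Slfn8 (0.0861) and B2m (0.0887) on the other side of the threshold, while Unc93b1 (0.0435) was called. Leaving out vehicle F1 and PLX3397 M2 gave 0.0661 for Irf8, 0.150 for Slfn8 and 0.197 for B2m.

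Of 661 member log2 fold changes under alternatives 601 kept their direction and side of the threshold, 1 newly passed it and 59 changed sign, all of these for members whose estimate was smaller than its standard error; the cause was not tested. Ifnar2 gave 0.013 with upper-quartile scaling and 0.0029 with no expression filter. Ifitm2 gave −0.0023 at a mean of at least 0.5 FPKM and −0.0087 at 1 FPKM, and Parp9 gave −0.0021 at 1 FPKM, −0.012 with no sex covariate and −0.0096 with the newer dispersion form. Rtp4 gave −0.029 and Xaf1 0.049 with limma on log2(CPM + 0.5), −0.027 and 0.0086 on log2(FPKM + 0.5), −0.043 and 0.035 on log2(FPKM + 0.1), −0.037 and 0.059 with the replicate block, and −0.66 and 0.19 without vehicle F1 and PLX3397 M2. Without those libraries Rsad2 gave −0.20 and Ifi35 0.059. With each library left out, the ranges that crossed 0 were −0.028 to 0.046 (Ifnar2), −0.50 to 0.12 (Irf7), −0.084 to 0.19 (Ifih1), −0.18 to 0.059 (Ddx58), −0.031 to 0.28 (Oasl2), −0.024 to 0.28 (Ifit3), −0.038 to 0.31 (Usp18), −0.15 to 0.22 (Parp9), −0.44 to 0.057 (Parp14), −0.27 to 0.087 (Dtx3l), −0.13 to 0.17 (Ifitm2), −0.099 to 0.30 (Ifitm3), −0.12 to 0.49 (Rsad2), −0.45 to 0.35 (Rtp4), −0.20 to 0.30 (Xaf1) and −0.24 to 0.22 (Ifi35).

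There were 4 libraries a group, and the members were at 0.262 to 31.7 FPKM. The 95% interval of the typical member reached 0.50 to either side on the log2 scale. That interval is for a gene tested alone, and a smaller change was not detectable for such a member. Calls were made on p-values adjusted over all tested genes, so a change larger than 0.50 could be missed too. The interval of Irf1 (−0.65 to −0.20) left out 0, yet its adjusted p with edgeR was 0.0981. A count of 0 called members does not show that the members did not differ.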
